A study of Rattus norvegicus with 12 samples.

Results

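The circRNAs described here are 4 backsplice junction products, measured by 1 probe each, 3 of the gene Ube2cbp (rno_circRNA_016706, rno_circRNA_016710 and rno_circRNA_016712) and 1 of Cnot6l (rno_circRNA_004685), out of 14145 circular RNA (circRNA) probes on the array. They were chosen by host gene from the study's supplementary list of circRNAs past its threshold for heroin against saline, of which 75 were used here, so the heroin and saline arrays took part in the choice. The array maker's names were matched to the probes of the scanner files. No table that pairs the other probes with genes was used here, so whether the array holds further Ube2cbp or Cnot6l circRNAs is not known here.

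RNA came from the orbitofrontal cortex (OFC) of 12 adult male Sprague Dawley rats, 1 array per rat and 3 rats per group. Heroin and saline rats were fitted with a jugular catheter and pressed for heroin (0.03 mg/kg per infusion) or for saline in 10 daily sessions of 6 h. Sucrose and naive rats had no surgery. Sucrose rats earned chocolate sucrose pellets in 10 daily sessions of 2 h, and naive rats sat in the same chambers for 2 h a day with no program running. All rats were 8 weeks old when they arrived, and tissue was taken directly after the last session. For heroin and saline rats 1 week of acclimation and 1 week of recovery are given, and for sucrose and naive rats neither is. Age at tissue collection may therefore differ between them. Sucrose against naive holds surgery and session length constant, whereas heroin or saline against sucrose or naive does not. The scan date is not held constant in sucrose against naive, as given below. Tissue was taken as frozen punches of the OFC with its cells unsorted, and no gene names were at hand to check it by markers.

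A circRNA forms when the end of a downstream exon is joined back to the start of an upstream exon of the same transcript, and the resulting ring has no free ends, which makes it resistant to the exonuclease RNase R. Brain tissue is rich in such RNAs. Ube2cbp, now named Ube3d in RefSeq, encodes a protein that binds the ubiquitin-conjugating enzyme UBE2C and acts as an E3 ubiquitin ligase, which marks proteins for breakdown. Cnot6l encodes a catalytic subunit of the CCR4-NOT complex, which removes the poly(A) tails of mRNAs, a step that starts their decay. A circRNA from either gene need not do what its host protein does. The array does not measure protein, and the linear mRNA of these genes was not examined here.

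The 3 Ube2cbp circRNAs are listed as exonic products of NM_001039610 on the minus strand of chromosome 8. By the listed positions rno_circRNA_016706 lies at chr8:93582945-93586349 (3404 bp), rno_circRNA_016710 at chr8:93582945-93598135 (15190 bp) and rno_circRNA_016712 at chr8:93592105-93606648 (14543 bp). The first lies wholly inside the second, and both have the same listed start, which on the minus strand is the end of the last exon. rno_circRNA_016712 overlaps the second by 6030 bp and is separated from the first by 5756 bp. The Cnot6l circRNA is listed as exonic from NM_001108355, plus strand, at chr14:15027627-15032560 (4933 bp). The sources used here do not name the genome build of these positions.

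**Figure D1:**
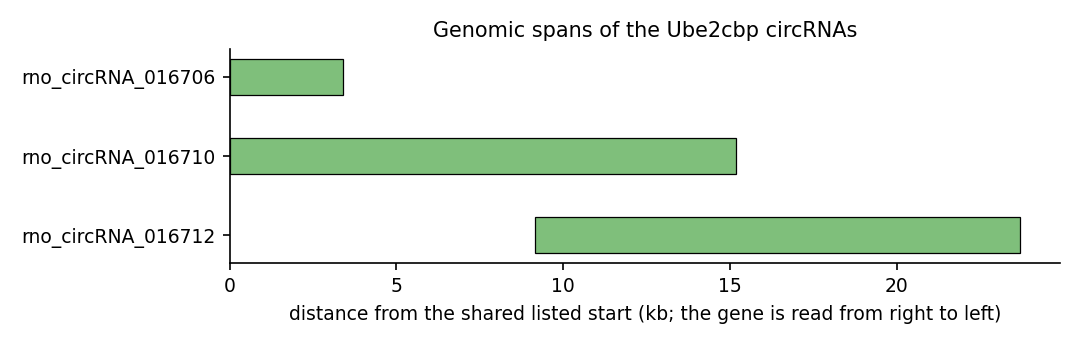
Genomic spans of the 3 Ube2cbp circRNAs, drawn as bars from listed start to listed end, in kb from the start that rno_circRNA_016706 and rno_circRNA_016710 share. The 3404 bp span sits inside the 15190 bp span, and the span of rno_circRNA_016712 begins beyond the end of the shortest.

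The probes are shown because what each one can tell apart depends on its letters. Each has 60 bases, and capitals mark the 44-base run that the first and second probes have in common.
rno_circRNA_016706: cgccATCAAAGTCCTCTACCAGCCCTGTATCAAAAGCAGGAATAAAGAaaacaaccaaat
rno_circRNA_016710: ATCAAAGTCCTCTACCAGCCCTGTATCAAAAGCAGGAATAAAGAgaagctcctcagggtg
rno_circRNA_016712: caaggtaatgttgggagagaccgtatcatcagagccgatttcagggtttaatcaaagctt
rno_circRNA_004685: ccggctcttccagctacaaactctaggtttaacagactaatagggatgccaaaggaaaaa
After the shared run, 12 bases in the first probe and 16 in the second remain, and these differ in their letters. How far the pair tells the circles apart in hybridization was not tested. No other pair of the 4 probes has more than 7 bases in a row in common. GC content was 41.7%, 46.7%, 43.3% and 43.3% in the order printed.

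All 48 member spots were well above background and none was saturated or flagged as an outlier, and the scanner software's own error was 10.0% to 10.2% of the signal. Over the 12 arrays the median background-subtracted intensity of the circRNA probes was 70.1 to 141, lowest on naive 1 and highest on sucrose 1, and 95.7% to 98.6% of the probes were well above background. Levels below are quantile-normalized log2 intensities, in which 1 unit is a doubling, and the level of one probe says nothing about that of another. A slide here stands for the arrays with the same scan date in the scanner files, and no slide identifier was read. By that date the heroin and saline arrays and sucrose 1 and 2 make up slide 1, and sucrose 3 and the naive arrays slide 2.

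The 3 Ube2cbp circRNAs were at their highest in the heroin rats, with 1 sucrose rat beside them. For rno_circRNA_016706 the heroin arrays had 10.09, 9.61 and 9.59, and the saline arrays 9.06, 8.96 and 9.13. The sucrose arrays had 9.82, 8.68 and 8.86, and the naive arrays 8.91, 9.43 and 9.29. Every heroin value was above every saline and naive value, but sucrose 1 lay between the heroin values while the other 2 sucrose arrays were the lowest of all 12. In scanner units the intensity ran from 310.0 on naive 1 to 1146 on sucrose 1.

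The longer rno_circRNA_016710, which shares most of its probe with the first, had 9.66, 9.36 and 9.20 in heroin and 8.63, 8.45 and 8.80 in saline. It had 9.44, 8.22 and 8.51 in sucrose and 8.46, 8.99 and 9.01 in naive. Sucrose 1 was again among the heroin arrays, and all other arrays were below the lowest heroin value. rno_circRNA_016712, with a probe of its own, had 7.51, 7.22 and 7.14 in heroin and 6.71, 6.25 and 6.55 in saline. It had 7.25, 6.17 and 6.26 in sucrose and 6.30, 6.58 and 6.26 in naive. The highest arrays came in the same order at all 3 junctions, heroin 1 first, then sucrose 1, heroin 2 and heroin 3.

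The Cnot6l circRNA went the other way between heroin and saline, and here the saline arrays were the ones that stood apart. Heroin arrays had 11.04, 11.29 and 11.95, and saline arrays 12.67, 11.98 and 12.30. Sucrose arrays had 11.04, 12.03 and 10.86, and naive arrays 11.88, 11.83 and 10.91. The heroin values lay within the range of the sucrose and naive values, whereas 2 of the 3 saline values were above those of every other array and the remaining one, 11.98, was passed outside saline by sucrose 2 alone. Raw intensities were 4406 to 7884 in saline and 1964 to 5007 over the other 3 groups.

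**Figure D2:**
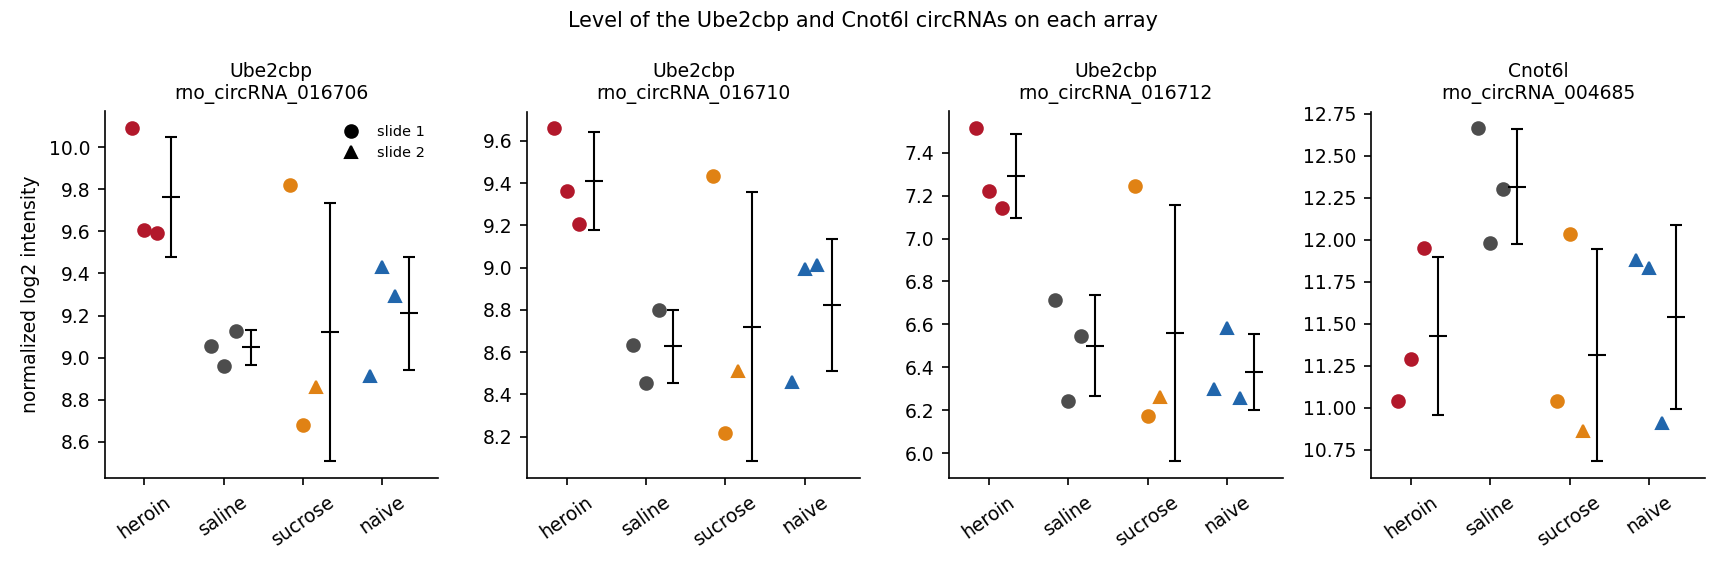
Normalized log2 intensity of each circRNA (1 panel each, with its own axis) on each of the 12 arrays, by group; circles are slide 1, triangles slide 2, and the bar beside each group is the mean ± SD (n = 3). Sucrose 1 sits among the heroin arrays for the 3 Ube2cbp circRNAs, and for Cnot6l the saline arrays are high while heroin lies with sucrose and naive.

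Group means put these levels in order. For rno_circRNA_016706 they were 9.76 ± 0.28 in heroin, 9.21 ± 0.27 in naive, 9.12 ± 0.61 in sucrose and 9.05 ± 0.08 in saline (SD, n = 3). For rno_circRNA_016710 they were 9.41 ± 0.23, 8.82 ± 0.31, 8.72 ± 0.64 and 8.63 ± 0.17 in the same order of groups. The order was different for rno_circRNA_016712, with 7.29 ± 0.20 in heroin, 6.56 ± 0.60 in sucrose, 6.50 ± 0.24 in saline and 6.38 ± 0.18 in naive. Below heroin, neighbouring groups in each order overlapped, and their means differed by less than the SD of the sucrose arrays. The Cnot6l means were 12.32 ± 0.34 in saline, 11.54 ± 0.55 in naive, 11.43 ± 0.47 in heroin and 11.31 ± 0.63 in sucrose, and the lower 3 groups overlapped one another.

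Heroin minus saline was the contrast behind the choice and is given as a description only. The differences in log2 intensity were 0.71 for rno_circRNA_016706 (1.64-fold), 0.78 for rno_circRNA_016710 (1.72-fold) and 0.79 for rno_circRNA_016712 (1.73-fold). Cnot6l fell by 0.89, to 0.540 of its saline level. The 2 groups did not overlap for any of the 4, against 14.7% of the 13979 circRNAs tested, and 2.6% of all passed a fold change of 1.5 with an unadjusted p under 0.05; nothing is read from either share, since the choice fixed it. On the deposited values the fold sizes were 1.65 (rno_circRNA_016712), 1.66 (rno_circRNA_016706), 1.66 (rno_circRNA_016710) and 1.91 (Cnot6l), where the nearest values inside and outside the fold limit over all circRNAs were 1.503 and 1.497. In tissue of mixed cells, a lower signal from fewer cells of a type and from less RNA per cell cannot be told apart.

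Comparisons of heroin or saline with the remaining groups use the same arrays as the choice, so these too are values without a test. Heroin minus naive was 0.55, 0.59 and 0.91 for Ube2cbp in the order of the probe names, with no overlap of the groups for any of the 3 (24.8% of all circRNAs had none), and saline minus naive was -0.16, -0.19 and 0.12, with overlap. For Cnot6l the picture was turned around. Its heroin and naive arrays overlapped and differed by -0.11, whereas saline minus naive was 0.78 with no overlap, as for 26.7% of all circRNAs. Heroin minus sucrose was 0.64, 0.69 and 0.73 for Ube2cbp and 0.11 for Cnot6l, and the groups overlapped for all 4 (14.8% of all circRNAs did not). Slide, surgery and session length move with the group in the comparisons with naive, and cannot be told apart from it there. Surgery and session length also move with the group in the comparisons of heroin or saline with sucrose, those within slide 1 included.

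Within slide 1, which held all heroin and saline arrays and 2 sucrose arrays, the heroin mean exceeded the mean of sucrose 1 and 2 by 0.51, 0.58 and 0.58 for Ube2cbp and differed by -0.11 for Cnot6l. On the same slide saline minus sucrose was -0.20, -0.20 and -0.21 for Ube2cbp and 0.78 for Cnot6l. The 2 sucrose arrays of this slide lay far apart for Cnot6l (11.04 and 12.03), and one of them was above the lowest saline array.

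Whether sucrose self-administration moved these circRNAs could be tested on a difference of means whose arrays had no part in the choice. The spread behind the limma SEs, intervals and p-values was shared by all 4 groups. The heroin and saline arrays, which took part in the choice, therefore enter the test through that spread. Slide also moved in part with the group here. Sucrose 1 and 2 were on slide 1, and sucrose 3 and the naive arrays on slide 2. The differences in this paragraph are not corrected for slide, and values from within slide 2 are given further on. None of the 4 passed the test in sucrose against naive, and the sign was not the same for all 3 Ube2cbp junctions. With limma and Benjamini-Hochberg adjustment over 13979 circRNAs, rno_circRNA_016706 had a log2 difference of -0.09 (SE 0.27, 95% interval -0.67 to 0.49, adjusted p = 0.914). For rno_circRNA_016710 it was -0.10 (SE 0.28, interval -0.70 to 0.50, limma adjusted p = 0.906). rno_circRNA_016712 was at 0.18 (SE 0.26, interval -0.37 to 0.74, limma adjusted p = 0.808). Cnot6l was at -0.23 (SE 0.35, interval -0.99 to 0.54, limma adjusted p = 0.830). The groups overlapped for all 4. The exact two-sided permutation p, which uses the sucrose and naive arrays alone, was 0.8 for rno_circRNA_016706 and 0.9 for the others. In this design of 3 against 3 arrays the smallest exact p is 0.1.

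None of the 4 had an unadjusted p under 0.05 or passed the fold limit of 1.5 with it, against 4.77% of all circRNAs (667 of 13979) for both criteria and 11.1% (1558) for the p alone. By adjusted p no circRNA of the 13979 passed (0%, smallest adjusted p 0.0785 by limma), and the methods' t-test gave 0 as well, with 981 circRNAs (7.02%) under an unadjusted 0.05. Groups without overlap made up 13.4% of all circRNAs and included no member. The median absolute difference over all circRNAs was 0.20, and the SEs of the 4 were above the median SE of 0.20.

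A p that misses the threshold does not show that sucrose left these circRNAs alone, and the intervals say how much room remains. Turned into folds of sucrose over naive, they ran from 0.629 to 1.40 for rno_circRNA_016706, from 0.615 to 1.41 for rno_circRNA_016710, from 0.771 to 1.66 for rno_circRNA_016712 and from 0.503 to 1.45 for Cnot6l. As point values, the heroin over saline folds of the 3 Ube2cbp circRNAs lay above the upper ends. The Cnot6l fold of 0.540 lay inside its interval. The limma intervals of these heroin folds overlapped the sucrose intervals for each circRNA. The sucrose intervals also rest on the spread shared with the heroin and saline arrays. On the deposited values the heroin over saline fold of rno_circRNA_016712 was 1.65, below the upper end of 1.66 given above. No contrast between heroin and sucrose is read from these positions. Whether the sucrose and heroin differences differ from each other was not tested, because the heroin side was picked for its size.

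The Ube2cbp values spread more among the sucrose arrays than in any other group (SD 0.60 to 0.64), and sucrose 1 was the high one. Without sucrose 1 the sucrose minus naive difference was -0.44 for rno_circRNA_016706, -0.46 for rno_circRNA_016710 and -0.16 for rno_circRNA_016712, so rno_circRNA_016712 turned negative. Without sucrose 2 it was 0.13, 0.15 and 0.37. The Cnot6l difference also moved with single arrays, to -0.59 without sucrose 2, -0.54 without naive 3 and -0.00053 without sucrose 3. Within slide 2, where sucrose 3 stands against the 3 naive arrays, the difference was -0.35, -0.31 and -0.12 for Ube2cbp and -0.68 for Cnot6l, a single array with no replicate. No limma adjusted p fell under 0.05 for any of the 4 in these settings.

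**Figure D3:**
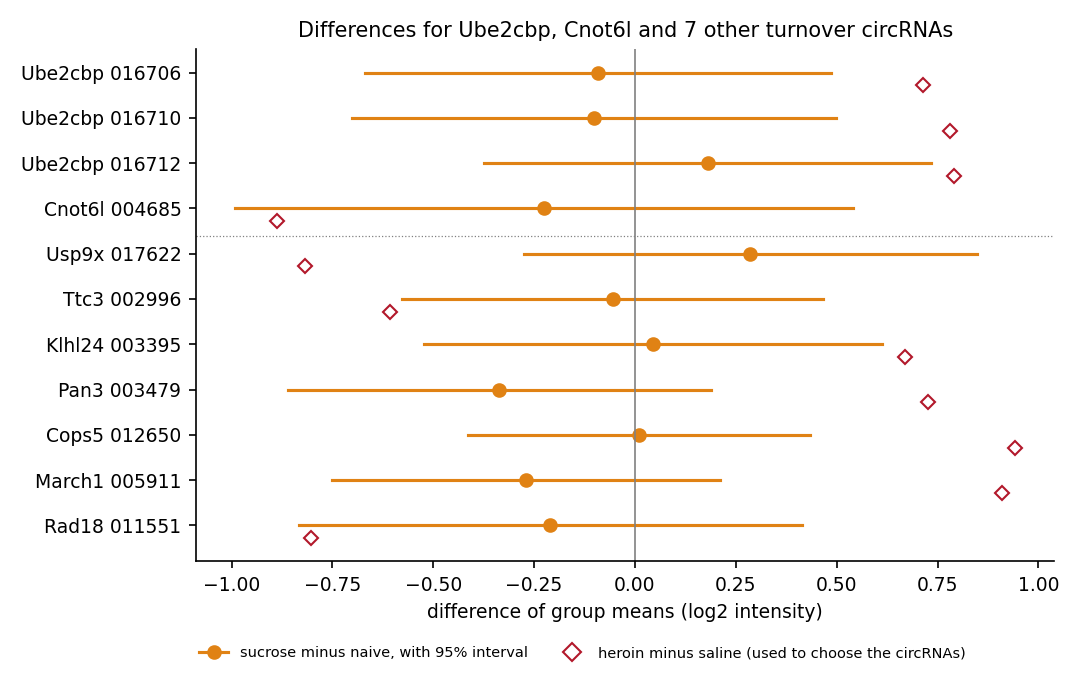
Sucrose minus naive in log2 intensity with its 95% interval (filled circles and lines, limma, 3 arrays per group) for the 4 circRNAs and, below the dotted line, 7 others whose host genes act in protein or mRNA turnover. Open diamonds give heroin minus saline, the contrast that chose all of them, and every sucrose interval spans 0.

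**Figure D4:**
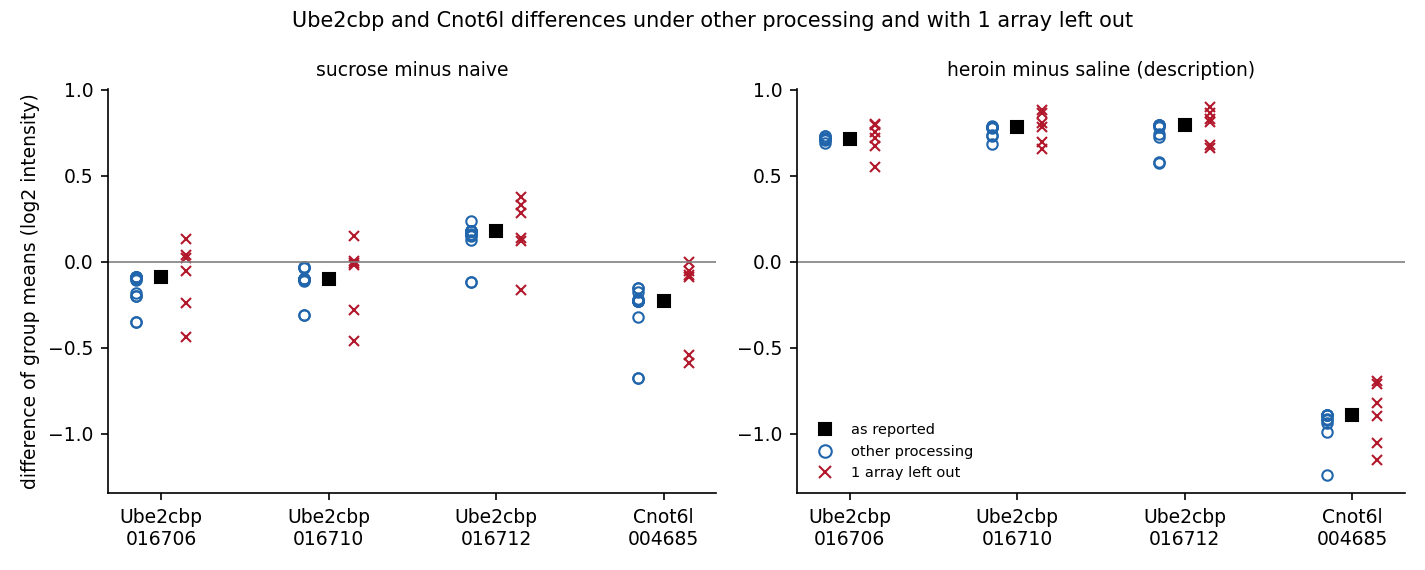
Sucrose minus naive and heroin minus saline in log2 intensity for the 4 circRNAs as reported (squares), under other processing (circles) and with 1 array left out (crosses). Sucrose minus naive crosses 0 for the 3 Ube2cbp circRNAs when an array is left out, and heroin minus saline keeps its sign in every setting drawn.

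Within groups, rno_circRNA_016706 and rno_circRNA_016710 rose and fell together from rat to rat, and their relation to rno_circRNA_016712 was less firm. This was measured on deviations from the group mean, which carry no difference between groups, over the 12 arrays. The heroin and saline arrays among them took part in the choice, which by its p-value also depends on the spread within groups. The correlations are therefore not independent of the choice, and what this does to r was not tested. The first and second circRNA, whose probes share 44 bases, had a Pearson r of 0.974 (exact permutation within groups, two-sided p = 0.00231, adjusted over 6 pairs 0.0139) and a Spearman rho of 0.972 (exact p = 0.00386, adjusted 0.0231). The circRNAs rno_circRNA_016706 and rno_circRNA_016712, whose probes have no more than 7 bases in a row in common and whose spans do not meet, had an r of 0.911 (exact p = 0.00694, adjusted 0.0208) and a rho of 0.804 (exact p = 0.0177, adjusted 0.0532). For rno_circRNA_016710 and rno_circRNA_016712 the r was 0.879 (exact p = 0.0170, adjusted 0.0340) and the rho 0.797 (exact p = 0.0278, adjusted 0.0556). So by r all 3 pairs passed and by rho only the pair with the shared run did. With arrays scaled to their 75th percentile, the pairs with rno_circRNA_016712 missed the threshold by r too (r = 0.892 and 0.838, exact permutation adjusted p = 0.0532 and 0.0664).

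The size of r depended on the arrays at the extremes. Without the 2 arrays farthest from the median, sucrose 1 and 2, the r fell to 0.929, 0.749 and 0.659. Without sucrose 1 alone the pair with the shared run stayed under the threshold (r = 0.923, exact permutation adjusted p = 0.0417), and the pairs with rno_circRNA_016712 did not (r = 0.698, exact permutation adjusted p = 0.0903, and r = 0.613, exact permutation adjusted p = 0.222). On the 8 arrays of slide 1 the r was 0.979, 0.943 and 0.957, where no pair passed after adjustment (exact permutation adjusted p = 0.0833, 0.111 and 0.111) and the smallest unadjusted p that can be had is 0.0139. Slide 2 held too few arrays for a value. Losing the call was not particular to sucrose 1: the exact permutation adjusted p passed 0.05 with any of 5 single arrays left out for rno_circRNA_016706 with rno_circRNA_016712, and with any of 7 for rno_circRNA_016710 with it. The part of hybridization to the shared 44 bases in the first pair was not tested either.

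No relation of Cnot6l to the Ube2cbp circRNAs passed the test across rats. Its r was -0.432 with rno_circRNA_016706 (exact permutation p = 0.350, adjusted 0.419), -0.512 with rno_circRNA_016710 (exact permutation p = 0.235, adjusted 0.352) and -0.155 with rno_circRNA_016712 (exact permutation p = 0.816, adjusted 0.816). The last turned to 0.335 without sucrose 1 and 2. On the arrays of slide 1 the r was -0.743, -0.722 and -0.559, and without sucrose 2 it was -0.166, -0.249 and 0.205, so the size moved with the arrays used and the sign of the last did not hold.

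**Figure D5:**
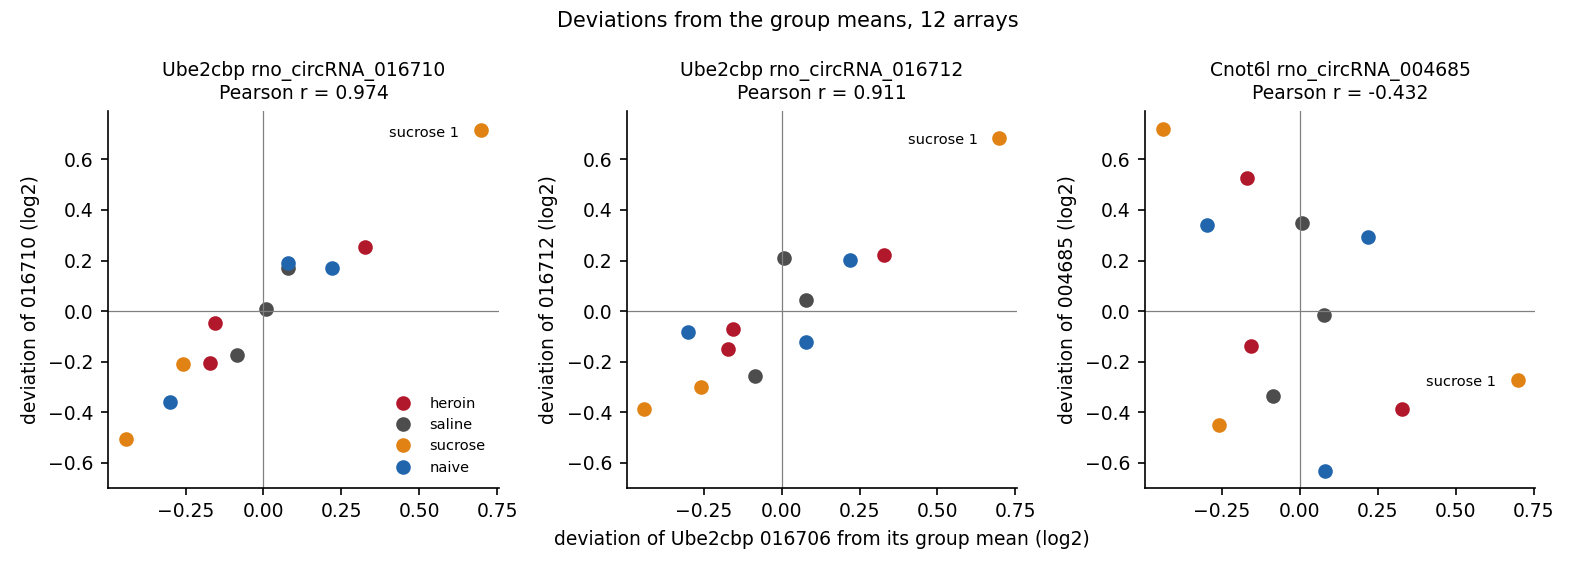
Deviation of each array from its group mean in log2 intensity, with rno_circRNA_016706 on the x axis and another circRNA on each y axis; colours are groups, 12 arrays per panel. Points of the other 2 Ube2cbp circRNAs rise with the first (r = 0.974 and 0.911), sucrose 1 lies farthest out, and Cnot6l scatters (r = -0.432).

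Likeness over all 12 arrays, group differences included, is given as a description. Among 13969 probes with a value on every array, rno_circRNA_016710 had the highest Pearson r with rno_circRNA_016706 (0.986) and rno_circRNA_016712 came at rank 3 (0.915). Between them stood the probe ASCRPR001290 (0.945), and ASCRPR013110 and ASCRPR007418 followed (both 0.887); the genes of these 3 are not named by the tables used here. Of the listed circRNAs outside Ube2cbp, Zzef1 (rno_circRNA_002296) came nearest at 0.798 and rank 33. For Cnot6l the nearest was Wdsub1 (rno_circRNA_010823, r = 0.963), then ASCRPR000588 (0.940), ASCRPR006258 (0.936), ASCRPR010348 (0.932) and ASCRPR014018 (0.930), with Dennd1b (rno_circRNA_004183, 0.927) at rank 6 and LOC100362279 (rno_circRNA_009663, 0.915) at rank 9. All points share arrays and normalization, and the listed circRNAs were picked on the same heroin and saline arrays, which favours likeness among them.

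Another 7 circRNAs of the list have host genes with a role in ubiquitin-dependent protein turnover or deadenylation. Usp9x encodes a deubiquitinase, Cops5 the catalytic subunit of the COP9 signalosome, and Ttc3, March1 and Rad18 encode E3 ubiquitin ligases. Klhl24 encodes an adaptor of a cullin ligase, and Pan3 a subunit of the PAN2-PAN3 deadenylase, which trims poly(A) tails ahead of CCR4-NOT. In heroin minus saline, which chose them, 4 were higher and 3 lower, and the directions did not sort by type of enzyme. Higher were Cops5 (0.94), March1 (0.91), Pan3 (0.73) and Klhl24 (0.67), and Usp9x (-0.82), Rad18 (-0.80) and Ttc3 (-0.61) were lower. The dimmest probes of the 7 were Cops5, Usp9x and March1. Over the heroin and saline arrays their intensities ran from 16.8 (Usp9x) to 102 (March1). On the deposited values their heroin and saline means lay closer, at 6.45 and 5.80, 5.58 and 6.18, and 6.94 and 6.26. The order by size is therefore not firm. The 2 deadenylase hosts thus stood on opposite sides, Pan3 higher and Cnot6l lower in heroin.

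In sucrose against naive, 0 of these 7 passed any of the thresholds above, and no pair of groups was free of overlap. The median of the 7 differences was -0.05 and of their sizes 0.21, beside -0.01 and 0.20 over all circRNAs. Pan3 was at -0.34 (limma adjusted p = 0.593), Usp9x at 0.29 (limma adjusted p = 0.677), March1 at -0.27 (limma adjusted p = 0.641) and Rad18 at -0.21 (limma adjusted p = 0.799). Ttc3, Klhl24 and Cops5 were at -0.05, 0.05 and 0.01. Among the untested comparisons, saline minus naive was -0.83 and heroin minus naive -0.10 for Pan3, with overlap of the groups in both, against 0.78 and -0.11 for Cnot6l. For March1 these values were -0.65 and 0.26, neither with overlap. Over all circRNAs, 26.7% had no overlap in saline against naive and 24.8% in heroin against naive. Cops5 was at -0.47, with overlap, and at 0.48, without.

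The array maker's predictions give the 5 top-ranked miRNAs for each of the 4 circRNAs, in all 20 entries and 14 different miRNAs with 9 different seeds (bases 2 to 8, the part of a miRNA that pairs with its targets). All were found in RefSeq's table (assembly GRCr8). The miRNAs themselves were not measured, and a miRNA outside the top 5 may still have a predicted site. They are shown because 1 seed fills most of the list of 2 Ube2cbp circRNAs: all 5 miRNAs of rno_circRNA_016706 have it, and rno_circRNA_016710 lists the first 4 of them. Capitals mark the seed.
rno-miR-17-5p: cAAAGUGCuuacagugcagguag
rno-miR-20a-5p: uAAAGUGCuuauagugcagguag
rno-miR-106b-5p: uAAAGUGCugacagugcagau
rno-miR-20b-5p: cAAAGUGCucauagugcagguag
rno-miR-93-5p: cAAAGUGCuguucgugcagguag
Of the 245 miRNA names in the whole list, 214 were found in RefSeq's table, and seeds were read for these alone. Among them this seed is listed for 2 of the 75 circRNAs, both from Ube2cbp. The remaining Ube2cbp circRNA, rno_circRNA_016712, has none of them in its top 5 and shares miR-29b-3p with rno_circRNA_016710 and miR-351-5p with Cnot6l, which also lists miR-125b-5p of the same seed.
rno-miR-29b-3p: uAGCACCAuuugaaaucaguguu
rno-miR-351-5p: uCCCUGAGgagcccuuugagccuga
rno-miR-125b-5p: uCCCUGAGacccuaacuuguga
Each of these seeds is listed for 2 of the 75 circRNAs, over the same 214 names. The other miRNAs, listed for 1 circRNA each, are miR-770-5p, miR-3547 and miR-7a-1-3p for rno_circRNA_016712 and miR-143-5p, miR-182 and miR-466c-5p for Cnot6l.

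The letters that would pair with a seed were then looked for in the probe of the circRNA that lists it, as the reverse complement of bases 2 to 8, on both strands. For the miR-17 seed these letters are GCACTTT, which 0 of the 75 probes hold, and for the miR-351 seed CTCAGGG, which 1 of 75 (1.33%) holds. That probe is the one of rno_circRNA_016710, printed above, which has neither miR-351-5p nor miR-125b-5p in its top 5. None of the 9 seeds had them in the probe of its own circRNA, and over the 75 probes the share was between 0% and 4.0%. A probe covers only 60 bases around the junction, so this says nothing about the rest of the circle.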

How the data were processed

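Circular RNA was measured on 1-colour Agilent arrays from Arraystar, 1 per rat, with all 12 arrays grouped by the sample labels. Per the labels, total RNA was digested with RNase R, amplified by random priming and labelled with Cy3. The authors deposited the spot intensities written by the scanner software, Agilent Feature Extraction 11.0.1.1. The authors also deposited a table of normalized log2 values of the same arrays, all of whose columns were mapped to a sample; the sources used here do not say whether background was subtracted in it. The submitters' processing notes name limma.

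Starting from the background-subtracted intensities of 14145 circRNA probes, 9 outlier spots were dropped and log2 values were quantile-normalized across arrays. The 13979 probes that were well above background on 3 or more arrays were fitted with limma (version 3.58.1, R 4.3.3) as 4 group means with a common spread and Benjamini-Hochberg adjustment. The tested comparison was sucrose against naive. Correlations used all 1296 within-group permutations. The fit and the permutations were tested on simulated data. Arrays give no counts, so the number of rats limits the precision.

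The circRNAs and the turnover list were chosen with earlier results of these data known. Named in full are the 4 circRNAs, with the 7 turnover circRNAs and, for likeness, the 5 probes of highest r and the 3 nearest listed circRNAs. The remaining probes carry no gene name in the tables used here. The fold changes and p-values in the study's supplementary list were not used.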

Additional observations from a re-analysis of the deposited data

How the results depend on the processing

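Sucrose minus naive stayed short of the threshold for all 4 circRNAs under every alternative run, while its sign did not hold for the Ube2cbp circRNAs. With 1 array left out it ran from -0.44 to 0.13 for rno_circRNA_016706, from -0.46 to 0.15 for rno_circRNA_016710 and from -0.16 to 0.37 for rno_circRNA_016712, where each low value is without sucrose 1 and each high one without sucrose 2. Cnot6l kept its sign and ran from -0.59 (without sucrose 2) to -0.00053 (without sucrose 3), with -0.68 under the slide block. With slide or slide row as a block rno_circRNA_016712 turned to -0.12, a fit in which sucrose 3 alone stands against naive. Among the turnover circRNAs, Ttc3 turned to 0.45 under either slide block, Klhl24 to -0.020 with array weights, and Cops5 to -0.030 with normexp background correction, -0.043 without background subtraction and -0.045 on the deposited values. With 1 array left out Ttc3 ran from -0.31 to 0.12, Klhl24 from -0.20 to 0.30, Rad18 from -0.60 to 0.0012 and Cops5 from -0.19 to 0.16. Pan3 (-0.49 to -0.18), Usp9x (0.12 to 0.54) and March1 (-0.39 to -0.044) kept their sign, and under either slide block Pan3 was at -0.62, Usp9x at 0.13 and March1 at -0.027. Replicate numbers paired no samples (correlations of same-numbered deviations -0.20 to -0.04), and with the replicate block the member differences were as reported (-0.09, -0.10, 0.18 and -0.23) and 649 circRNAs, against 667, passed both the fold limit and the unadjusted p.

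The count of circRNAs past that pair of criteria was 145 with normexp, 319 without background subtraction, 285 on the deposited values, 254 by the methods' t-test and 1017 with array weights, and 444 (without naive 1) to 1327 (without sucrose 3) with 1 array left out. By adjusted p it was 0 as reported, 2 with normexp, 1 without background subtraction, 3 on the deposited values, 1 with an intensity trend, and 0 to 11 with 1 array left out (11 without sucrose 3). None of these settings called any of the 4 circRNAs. The leave-out and slide 1 values of the correlations were chosen after seeing the data. Scaling to the 75th percentile took the pairs with rno_circRNA_016712 past 0.05 (r = 0.892, exact permutation adjusted p = 0.0532, and r = 0.838, exact permutation adjusted p = 0.0664). On slide 1 arrays the r of the Ube2cbp pairs was 0.979, 0.943 and 0.957. With 1 array left out it ran from 0.698 to 0.942 for rno_circRNA_016706 with rno_circRNA_016712 and from 0.613 to 0.945 for rno_circRNA_016710 with it, lowest without sucrose 1, and the adjusted p was above 0.05 for 5 and 7 of the 12 left-out arrays. Cnot6l with rno_circRNA_016712 ran from -0.35 to 0.21. The cause of these shifts was not tested.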
